A study of Mus musculus with 4 samples.

Results

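The 37 genes of the NRF2, glutathione and thioredoxin defence were examined in 4 ATAC-seq peak lists of mouse dermal fibroblasts. ATAC-seq uses the Tn5 transposase to insert sequencing adapters into accessible DNA, so a peak marks open chromatin. Every peak whose midpoint lay inside a member gene, or within 50000 bp of it on mm10, was taken. All 37 of 37 member symbols matched the RefSeq table, which holds 21887 protein-coding genes on the chromosomes used, and their windows spanned 4.42 Mb with no peak shared between members. The windows held 1377 of the 585165 peaks in Sod2-/- fibroblasts and 1104 of 433013 in the Sod2+/+ control. They held 913 of 347438 peaks in rotenone and 955 of 340240 in vehicle. Among the strongest peaks, defined below, the last one inside the 50000 bp limit lay 48991 bp from Fth1 (fold 5.82, rotenone), and the first one outside it lay 50183 bp from Prdx3 (fold 10.5, rotenone).

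The first group was dermal fibroblasts of a conditional Sod2 knockout (genotype Sod2-/-), set against Sod2+/+ control fibroblasts. Sod2 encodes the manganese superoxide dismutase, which turns mitochondrial superoxide into hydrogen peroxide. The second pair was Sod2+/+ fibroblasts exposed to rotenone at a labelled 250 µM, and Sod2+/+ fibroblasts given vehicle. Rotenone blocks complex I of the mitochondrial respiratory chain. All cells were of strain C57BL/6, and the labels give 100 days for each group without saying what the days count. The labels give neither the driver of the Sod2 deletion, nor the number of animals, nor the duration of rotenone. There was 1 library per group, so no difference below has a replicate check and no p-value is given. In bulk chromatin, fewer cells with an open site cannot be told apart from a site that is less open in each cell.

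NRF2, encoded by Nfe2l2, is a transcription factor that pairs with small MAF proteins on antioxidant response elements. KEAP1 holds NRF2 in the cytoplasm for degradation until oxidants or electrophiles modify it, and BACH1 competes with NRF2 for the same elements and represses them. The targets make and recycle glutathione, reduce thioredoxin, and feed both to the peroxidases that remove hydrogen peroxide and lipid peroxides. In fibroblasts these systems handle the peroxide that mitochondria and growth factor signalling release. The antioxidant response element resembles the site of AP-1, the factor family of JUNB named in the title of the series.

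The sequences before the start sites of 6 members are printed as examples, chosen after their values were seen, in which a peak lay over the start site in all 4 libraries and the sequence holds a match of the response element or of the AP-1 site. Mafk, Mafg, Mgst1 and Maff also have a start-site window with a core match before the start site and a peak in all 4 libraries, and are not printed. They are taken from RefSeq on GRCm38.p6, the assembly behind mm10, as the 250 bases before the start site, 5′ to 3′ on the strand of the gene. Capitals mark matches of the antioxidant response element core TGACNNNGC or of the AP-1 site TGANTCA, searched on both strands.
Nfe2l2, chr2:75704664-75704913, minus strand: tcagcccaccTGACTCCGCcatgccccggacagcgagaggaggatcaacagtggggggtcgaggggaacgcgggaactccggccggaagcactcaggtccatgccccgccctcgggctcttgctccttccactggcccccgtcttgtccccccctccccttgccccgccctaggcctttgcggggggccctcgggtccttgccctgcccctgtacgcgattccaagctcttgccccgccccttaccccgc
Gclm, chr3:122245307-122245556, plus strand: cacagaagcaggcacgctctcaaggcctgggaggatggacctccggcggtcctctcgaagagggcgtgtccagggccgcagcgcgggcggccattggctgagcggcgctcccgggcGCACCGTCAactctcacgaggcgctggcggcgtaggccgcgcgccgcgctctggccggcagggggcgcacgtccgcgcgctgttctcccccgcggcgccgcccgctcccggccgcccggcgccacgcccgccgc
Txnrd1, chr10:82858956-82859205, plus strand: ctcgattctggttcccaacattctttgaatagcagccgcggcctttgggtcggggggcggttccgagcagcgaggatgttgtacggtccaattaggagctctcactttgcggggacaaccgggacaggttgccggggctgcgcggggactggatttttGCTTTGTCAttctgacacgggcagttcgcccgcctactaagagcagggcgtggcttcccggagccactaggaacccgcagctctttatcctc
Prdx1, chr4:116685349-116685598, plus strand: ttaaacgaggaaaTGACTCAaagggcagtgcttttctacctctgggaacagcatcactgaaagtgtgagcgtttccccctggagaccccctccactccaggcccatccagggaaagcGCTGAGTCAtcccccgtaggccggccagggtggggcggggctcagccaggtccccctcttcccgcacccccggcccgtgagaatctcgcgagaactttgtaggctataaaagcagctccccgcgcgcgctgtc
Srxn1, chr2:152105274-152105523, plus strand: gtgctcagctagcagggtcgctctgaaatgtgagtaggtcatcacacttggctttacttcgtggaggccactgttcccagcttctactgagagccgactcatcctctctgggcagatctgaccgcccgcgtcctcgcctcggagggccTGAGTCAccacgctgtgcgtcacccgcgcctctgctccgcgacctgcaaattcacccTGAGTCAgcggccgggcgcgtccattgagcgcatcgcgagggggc
Glrx, chr13:75839635-75839884, plus strand: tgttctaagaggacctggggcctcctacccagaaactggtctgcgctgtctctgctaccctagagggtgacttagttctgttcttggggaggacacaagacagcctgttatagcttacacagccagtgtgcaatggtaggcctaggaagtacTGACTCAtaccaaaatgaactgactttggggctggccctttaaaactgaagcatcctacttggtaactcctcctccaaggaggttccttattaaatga

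The core match begins 240 bases before the start site at Nfe2l2, 134 at Gclm, 92 at Txnrd1 and 133 at Prdx1. At Prdx1 this match overlaps 1 of 2 AP-1 matches, which begin 237 and 131 bases before the start site. The AP-1 matches begin 102 and 45 bases before the start site at Srxn1 and 98 bases before it at Glrx. In windows of 300 bases (250 before to 50 after a start site), 9 of the 32 members in the promoter table held the core (28.1%), against 14.8% of 17492 protein-coding genes. The other holders were Srxn1, where the match lies after the start site, Mafk, Mgst1, Mafg and Maff. The AP-1 site was found at 3 of the 32 (9.38%), against 8.12% of all genes. A gene counts here if any of its windows holds a match, and the members have more windows per gene, which favours them. Counted by window, the core was in 9 of 46 member windows, against 2759 of all 21263 windows. The AP-1 site was in 4 of 46 member windows, against 1486 of all 21263. A match is a description of letters and does not show that a factor was bound. Prdx6, Gsr, Hmox1, Gclc and Gsta4 had no entry in the table.

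Values below are the authors' fold enrichment of a peak over its local background and the rank of the peak by the authors' −log10 p within its own list. The 30000 highest ranked peaks of each list are called strong. Across these, the median fold was 5.49 in Sod2-/-, 6.78 in control, 5.99 in rotenone and 7.13 in vehicle, and the median width was 293, 376, 277 and 349 bp in the same order, so a lower fold or a narrower peak in Sod2-/- or rotenone is the rule for the whole list. Read depth per library is unknown. As a check of the label, 6 to 8 of 12 dermal fibroblast markers held a strong peak in the gene or within 1000 bp of it, while Col1a1, Col3a1, Lum and Thy1 held none in any library. Of all protein-coding genes, 50.4% to 51.6% held one, so the fibroblast count is at or somewhat above that share. The counts were 3 to 4 of 7 for keratinocyte, 2 to 4 of 6 for endothelial, 0 to 2 of 6 for myeloid and lymphoid and 1 to 3 of 5 for melanocyte and Schwann markers, of which the keratinocyte and endothelial counts lie near the share of all genes, so strong peaks alone did not set fibroblasts apart. Their part in the results was not tested.

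A larger share of the defence genes than of all genes had a strong peak at a gene end or start site, in each of the 4 libraries. A strong peak within 1000 bp of either end of the gene was present at 19 of 37 members in Sod2-/- (51.4%, 95% Wilson interval 35.9 to 66.6), 21 in control (56.8%, 40.9 to 71.3), 19 in rotenone (51.4%, 35.9 to 66.6) and 18 in vehicle (48.6%, 33.4 to 64.1). Among all protein-coding genes the share was 35.8%, 35.7%, 36.5% and 35.6% in the same order. The intervals cover counting error only. Those of rotenone and vehicle include the share of all genes, that of Sod2-/- begins just above it, and that of control lies above it. With start sites in place of gene ends, a choice made after seeing the data, 21 of 32 members had a strong peak in Sod2-/- (65.6%), 23 in control (71.9%), 23 in rotenone (71.9%) and 20 in vehicle (62.5%), against 35.5%, 35.7%, 36.0% and 35.5% of all genes in the table. A gene counts here if any of its start-site windows holds one. The 32 members have 46 windows and the 17492 genes 21263, which favours the members.

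**Figure D1:**
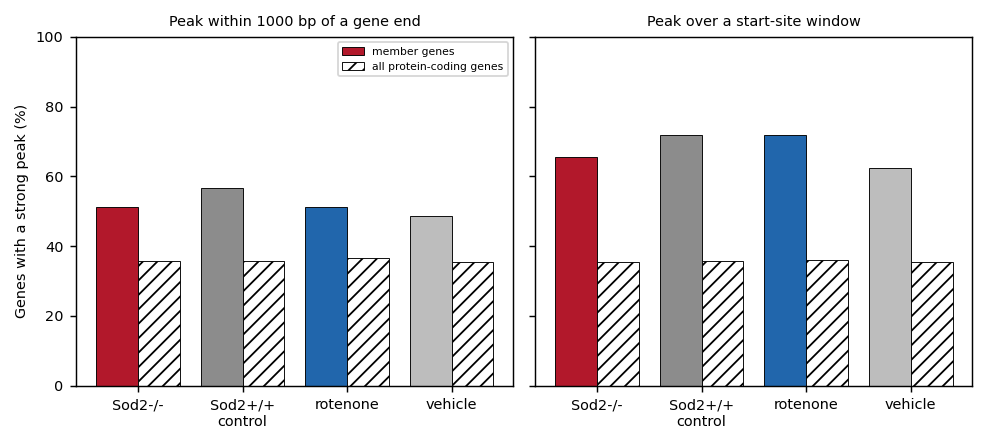
Share of genes (%) with a strong peak, for the member genes (filled bars) and all protein-coding genes (hatched bars) in the 4 libraries, at gene ends (left) and over start-site windows (right). The filled bars stand at 48.6% to 56.8% on the left and 62.5% to 71.9% on the right, and the hatched bars near 36% in all.

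Of the 37 members, 14 had a strong gene-end peak in all 4 libraries, 11 in 1 to 3 libraries and 12 in none. The 14 were Nfe2l2, Bach1, Sqstm1, Nqo1, Hmox1, Gclm, Txn1, Txn2, Txnip, Prdx3, Srxn1, Gpx1, Gstm1 and Glrx. Where the strand is in the promoter table, every strong best gene-end peak (17 to 19 per library) lay at the start side of the gene and 0 at its far end. Only the highest ranked peak of each gene is counted there, and Srxn1 also had a strong peak at its far end in all 4 libraries. The 12 without a strong gene-end peak in any library were Keap1, Mafg, Fth1, Gss, Slc7a11, Txnrd1, Txnrd2, Prdx2, Prdx4, Prdx6, Gpx4 and Gsta4. Slc7a11, Txnrd1, Gpx4 and Fth1 nevertheless had a strong peak in all 4 libraries over a start site inside the gene span. The Prdx5 gene-end peak also overlaps Trmt112 and those of Gpx8 lie inside Cdc20b, so they cannot be assigned to the member alone.

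**Figure D2:**
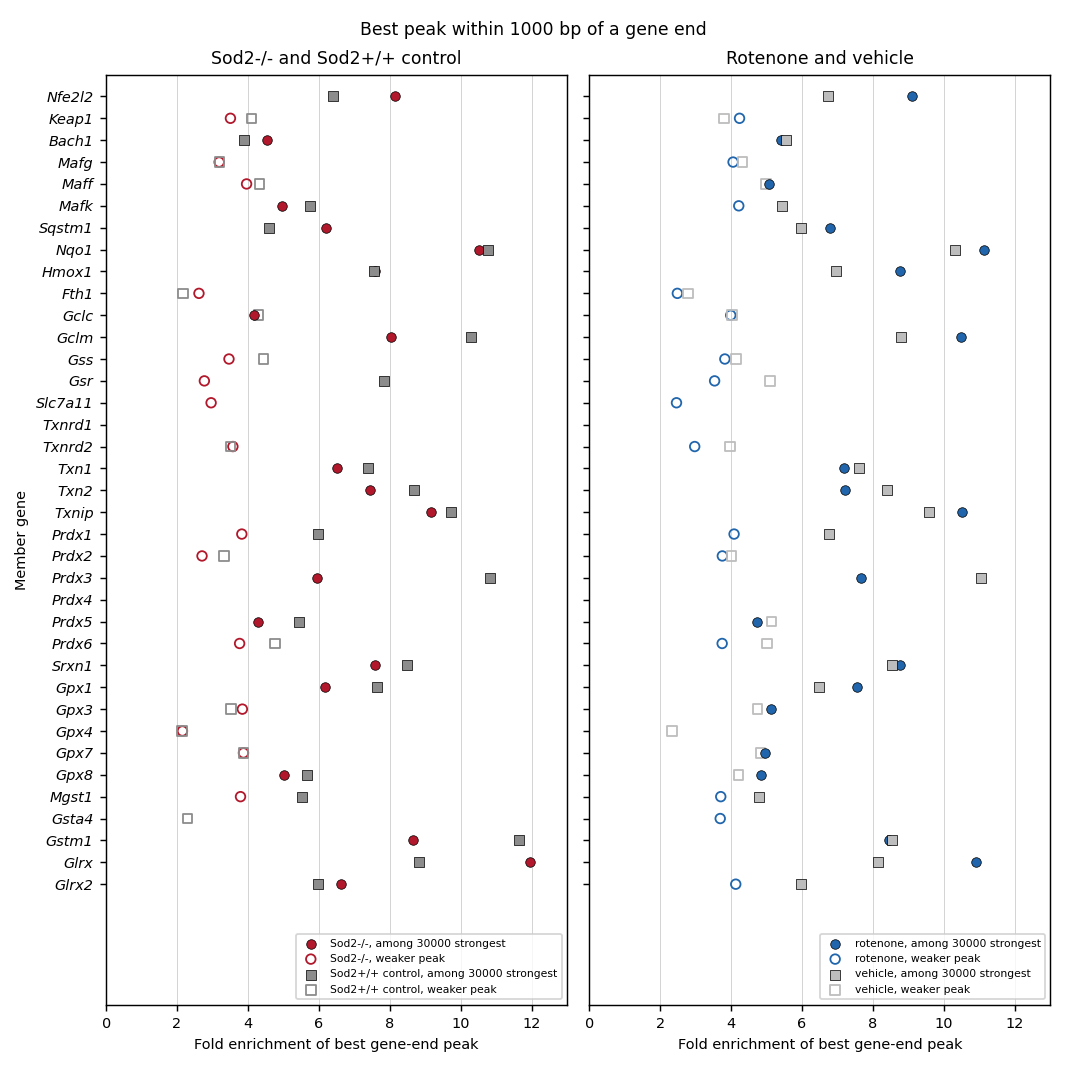
Fold enrichment of the highest ranked peak within 1000 bp of either end of each member gene, for Sod2-/- and Sod2+/+ control (left) and rotenone and vehicle (right). Filled symbols are among the 30000 strongest peaks of the library, open symbols are weaker, and no symbol means no peak. Nqo1, Gstm1, Glrx, Prdx3, Txnip and Gclm have a symbol above 10 in at least 1 library.

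Among the regulators, the start of Nfe2l2 (chromosome 2, 75675513-75704663) was open in every library and ranked higher in both perturbed libraries, Sod2-/- and rotenone, than in control and vehicle. The peak at its start had a fold of 8.15 (rank 2639) in Sod2-/- and 6.40 (rank 5424) in control. It had 9.09 (rank 2442) in rotenone and 6.72 (rank 6503) in vehicle. The perturbed libraries thus had the higher fold here, opposite to the medians of their lists. The peak was also narrower in them, at 547 bp in Sod2-/- against 799 bp in control and 644 bp in rotenone against 725 bp in vehicle. Fold and rank thus compare peaks of unequal extent, and the part of width in them was not tested. Sqstm1 (chromosome 11, 50200152-50210820), which encodes the autophagy receptor p62 that sequesters KEAP1, showed the same order. Its best gene-end peak had a fold of 6.20 (rank 10245) in Sod2-/- and 4.58 (rank 24605) in control, and 6.78 (rank 9198) in rotenone and 5.98 (rank 15290) in vehicle. The control peak at Sqstm1 was 878 bp wide and the Sod2-/- peak 287 bp, so the rank compares peaks of unequal extent.

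Keap1 (chromosome 9, 21229730-21239332) had no strong gene-end peak. Its best one had a fold of 3.50 (rank 45788) in Sod2-/-, 4.10 (rank 48620) in control, 4.24 (rank 35766) in rotenone and 3.81 (rank 64299) in vehicle. Bach1, the repressor gene (chromosome 16, 87698954-87733346), had a fold of 4.53 in Sod2-/- and 3.90 in control, where at rank 29194 it was only just inside the strong list. It had 5.42 in rotenone and 5.56 in vehicle. A further Bach1 region at 87699826-87700417, 1167 bp inside the gene and so outside the gene-end class, was strong in all 4 libraries. Its fold was 4.78 (rank 20977) in Sod2-/- and 8.34 (rank 4280) in control. In rotenone it was 4.995 (rank 21953), and in vehicle 7.72 (rank 6725). At this region both perturbed libraries lay lower, unlike the gene-end peak in Sod2-/-. The small MAF genes encode the partners of both NRF2 and BACH1. Mafk was strong in Sod2-/- (fold 4.96), control (5.75) and vehicle (5.43) and ranked 32579 in rotenone (4.22). Maff was strong in rotenone alone (fold 5.08, rank 23114), against rank 37709 and a near equal fold of 4.98 in vehicle, and ranked 34477 in Sod2-/- and 42460 in control. At Mafg the start-site window held a peak that was strong in Sod2-/- (fold 4.33, rank 27221) and rotenone (5.57, rank 20087), but ranked 53168 in control (3.94) and 42218 in vehicle (4.66).

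Of the classic NRF2 targets in quinone and haem metabolism, Nqo1 (chromosome 8, 107388225-107403205), a quinone reductase gene, had one of the strongest starts among the members. Its fold was 10.5 in Sod2-/- and 10.8 in control, and 11.1 in rotenone and 10.3 in vehicle, with ranks of 1953, 2364, 1667 and 3245 in that order. Hmox1 (chromosome 8, 75093618-75100593), the haem oxygenase gene, had a gene-end peak with a fold of 7.59 in Sod2-/- and 7.54 in control, and 8.77 in rotenone and 6.97 in vehicle. A stronger peak lay 9703 bp outside the gene at chromosome 8, 75083730-75084100, with a fold of 15.1 (rank 639) in Sod2-/-, 18.7 (rank 393) in control, 16.9 (rank 531) in rotenone and 17.2 (rank 506) in vehicle. A further one at 75089265-75089829, 4071 bp outside, was also strong in all 4 libraries, with a fold of 5.51 in Sod2-/- and 4.80 in control, and 4.59 in rotenone and 5.19 in vehicle. The mouse gene is known for distal enhancers that carry antioxidant response elements. Whether these peaks are those enhancers was not tested. At 75071525-75071857, 21927 bp from Hmox1 and nearest to Tom1, a peak was strong in control (fold 7.67) and vehicle (7.81) but ranked 34796 in Sod2-/- (3.98) and 51267 in rotenone (3.72). Fth1, the ferritin heavy chain gene (chromosome 19, 9980600-9985111), had its peak over an internal start site, with a fold of 5.34 (rank 14914) in Sod2-/- and 8.02 (rank 5488) in control, and 5.81 (rank 14610) in rotenone and 8.15 (rank 6969) in vehicle. Both perturbed libraries were lower there, in fold and in rank.

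Genes of glutathione synthesis and recycling differed among themselves. Gclm (chromosome 3, 122245487-122267215) encodes the modifier subunit of glutamate-cysteine ligase, which catalyses the limiting step of glutathione synthesis. Its start had a fold of 8.03 (rank 5380) in Sod2-/- and 10.3 (rank 4189) in control, and 10.5 (rank 2631) in rotenone and 8.79 (rank 8726) in vehicle. Gclc, the catalytic subunit gene (chromosome 9, 77754535-77794489), had a weaker gene-end peak near the limit of the strong list: fold 4.17 (rank 26238) in Sod2-/-, 4.30 (rank 31210) in control, 3.99 (rank 38205) in rotenone and 4.02 (rank 46994) in vehicle. A stronger Gclc region inside the gene, at 77759841-77760219, was strong in all 4 libraries with folds of 7.75, 9.15, 8.99 and 9.01 in Sod2-/-, control, rotenone and vehicle. Slc7a11 (chromosome 3, 50364936-50499087) encodes the cystine transporter that supplies the pathway. Over its start site at 50443613 the fold was 5.60 (rank 14978) in Sod2-/- and 10.7 (rank 5166) in control, and 5.44 (rank 19092) in rotenone and 8.32 (rank 11242) in vehicle. Both perturbed libraries lay lower at this start site. At 3 of the other 4 Slc7a11 regions the fold was also lower in Sod2-/- than in control and in rotenone than in vehicle, but in rotenone the rank was lower at only 1 of those 3. Gss, the glutathione synthetase gene, had no strong gene-end peak, with a fold of 3.46 in Sod2-/- and 4.43 in control, and 3.82 in rotenone and 4.14 in vehicle.

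Gsr (chromosome 8, 33653238-33698162), which encodes the reductase that regenerates glutathione from its disulfide, had lower values in both perturbed libraries at each of its 4 own regions. The gene-end peak at 33653355-33653629 had a fold of 2.77 (rank 96467) in Sod2-/- and 7.82 (rank 13081) in control, and 3.53 (rank 55802) in rotenone and 5.09 (rank 32589) in vehicle. Vehicle was itself well below control at this place, so the Sod2+/+ libraries also differed from each other. Those coordinates are of the control peak. The peaks were of unequal extent, at 240 bp in Sod2-/-, 275 bp in control, 685 bp in rotenone and 803 bp in vehicle. At 33660379-33660930, inside the gene, the fold was 4.34 (rank 27506) in Sod2-/- and 9.42 (rank 5245) in control, and 4.36 (rank 35003) in rotenone and 9.02 (rank 6878) in vehicle. Here control and vehicle stood close together and both perturbed libraries low. A further Gsr region at 33673993-33674695 had 3.87 in Sod2-/- and 6.58 in control, and 4.30 in rotenone and 6.01 in vehicle.

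In the thioredoxin system, Txn1 and Txn2, the cytosolic and mitochondrial thioredoxin genes, had strong starts in every library. Txn1 (chromosome 4, 57943373-57956411) held this single strong peak in its window, with a fold of 6.51 in Sod2-/- and 7.37 in control, and 7.19 in rotenone and 7.61 in vehicle. Its ranks were 7084, 7426, 5871 and 8534 in that order, so the perturbed libraries were lower in fold but higher in rank. Txn2 (chromosome 15, 77915051-77928994) had 7.45 in Sod2-/- and 8.68 in control, and 7.22 in rotenone and 8.39 in vehicle. Txnip, the gene of the inhibitor that binds reduced thioredoxin (chromosome 3, 96557957-96561857), had 9.17 (rank 3660) in Sod2-/- and 9.73 (rank 7135) in control, and 10.5 (rank 3416) in rotenone and 9.57 (rank 8485) in vehicle. Its rank was thus higher in both perturbed libraries. Txnrd1 (chromosome 10, 82833951-82897724), the cytosolic thioredoxin reductase gene, was open over its start site at 82859206, whose preceding sequence is printed above. The fold there was nearly level, at 6.57 in Sod2-/- and 6.97 in control, and 6.96 in rotenone and 6.69 in vehicle. Txnrd2, the mitochondrial reductase gene, had no strong gene-end peak, with folds of 3.57, 3.50, 2.97 and 3.97 in Sod2-/-, control, rotenone and vehicle.

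The peroxiredoxins, thiol peroxidases that remove hydrogen peroxide, ranged from one of the strongest starts to no gene-end peak. Prdx3 (chromosome 19, 60864066-60874538), a mitochondrial member, had a fold of 5.95 (rank 11428) in Sod2-/- and 10.8 (rank 4187) in control, and 7.66 (rank 7595) in rotenone and 11.0 (rank 4673) in vehicle. Prdx1 (chromosome 4, 116685599-116700000), a cytosolic member whose promoter holds both motifs, had 3.82 (rank 36859) in Sod2-/- and 5.98 (rank 23089) in control, and 4.08 (rank 39603) in rotenone and 6.76 (rank 19484) in vehicle. At both genes control and vehicle stood together above the perturbed libraries, and the Prdx1 start was strong in the 2 Sod2+/+ libraries without rotenone alone. Srxn1 (chromosome 2, 152105524-152111376), the gene of sulfiredoxin, which repairs overoxidised peroxiredoxins, had 7.58 in Sod2-/- and 8.47 in control, and 8.75 in rotenone and 8.53 in vehicle. The ranks were 4206, 4413, 3355 and 4609 in that order. A second strong Srxn1 peak lay 750 bp beyond its far end, at 152112007-152112245. The fold of this peak was 4.49 (rank 25517) in Sod2-/- and 8.98 (rank 8853) in control. It was 5.55 (rank 19765) in rotenone and 9.96 (rank 7227) in vehicle. Prdx5 lay at the limit of the strong list, with ranks of 29086 in Sod2-/-, 28901 in control, 28073 in rotenone and 34847 in vehicle. Prdx6 had no strong gene-end peak, with a fold of 3.76 in Sod2-/- and 4.77 in control, and 3.75 in rotenone and 5.005 in vehicle. Prdx2 had none either, and its best gene-end peak lay at the far end of the gene in Sod2-/- (2.70) and control (3.33) but at the start in rotenone (3.75) and vehicle (4.01). Prdx4 had no gene-end peak of any strength. Prdx2 lies beside Junb, and the 3 Junb peaks fall in its window; they were strong in all 4 libraries with folds of 3.91 to 4.47.

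Among glutathione peroxidases, Gpx1 (chromosome 9, 108339080-108340342), the cytosolic enzyme, had a fold of 6.18 in Sod2-/- and 7.64 in control, and 7.54 in rotenone and 6.48 in vehicle. Gpx4, whose product reduces lipid peroxides, had a fold of 8.77 in Sod2-/- and 8.64 in control, and 9.13 in rotenone and 9.58 in vehicle over start sites inside its span. Gpx3, the secreted enzyme, was strong at the gene end in rotenone alone (5.11, rank 23263), against rank 41750 in vehicle (4.74), with 3.84 in Sod2-/- and 3.52 in control. Gpx7, an enzyme of the endoplasmic reticulum, was also strong in rotenone alone (4.96, rank 24479), against rank 38662 in vehicle (4.82), with 3.87 in both Sod2-/- and control. The best gene-end peak of Gpx8, of the same compartment, was strong in Sod2-/- (5.02), control (5.66) and rotenone (4.85) and ranked 55194 in vehicle (4.21). These values come from separate peaks, at 113046615-113046744 in Sod2-/- and rotenone and at 113046363-113046525 in control and vehicle. At the former, control had a fold of 4.83 (rank 36049) and vehicle 2.45. At the latter, Sod2-/- had 4.10 (rank 31944) and rotenone 2.51. The folds of Gpx3 and Gpx7 in rotenone and vehicle were closer than their ranks.

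Of the transferases and glutaredoxins, Glrx (chromosome 13, 75839885-75850151), the cytosolic glutaredoxin gene, had the highest fold of any member gene-end peak in Sod2-/-, 11.9 (rank 1429), against 8.82 (rank 4164) in control. It had 10.9 (rank 2507) in rotenone and 8.15 (rank 6660) in vehicle. Its peak was 292 bp wide in Sod2-/- against 841 bp in control, and 293 bp in rotenone against 846 bp in vehicle, so a narrow peak of high fold stood where the 2 unperturbed libraries had a wide one. Gstm1 (chromosome 3, 108012250-108017973), a glutathione transferase gene, had 8.66 in Sod2-/- and 11.6 in control, and 8.46 in rotenone and 8.53 in vehicle, so control stood apart from vehicle. The Gstm1 peak was 388 bp wide in control and 630 bp in vehicle. Mgst1, a membrane-bound transferase gene, was strong in control (5.52) and vehicle (4.79) and ranked 38903 in Sod2-/- (3.79) and 49841 in rotenone (3.71). Glrx2, the mitochondrial glutaredoxin gene, had 6.62 in Sod2-/- and 5.97 in control, and 4.13 in rotenone and 5.97 in vehicle. The rotenone value follows from the 1000 bp limit, because a rotenone peak of fold 7.45 lay 1010 bp from the gene end, while the Sod2-/- peak lay 921 bp from it. Gsta4 had no strong gene-end peak.

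The share of members whose gene-end peak ranked higher in the first library of a pair lay furthest from that of all genes between vehicle and control. Of members with a strong gene-end peak in either library of a pair, 13 of 22 ranked higher in Sod2-/- than in control (59.1%), against a background of 52.9% of all genes. In rotenone 16 of 23 ranked higher than in vehicle (69.6%), against 55.6%. In vehicle 3 of 21 ranked higher than in control (14.3%), against 49% of all genes, although these libraries differ neither in Sod2 nor in rotenone. The rotenone comparison uses the same vehicle library, and the Sod2-/- comparison the same control, so these shares are not separate observations. Over both perturbations, which share no library, 13 of 25 members ranked higher in both (52%; 38.4% of all genes), 5 lower in both (20%; 31.0%) and 7 were mixed. Those lower in both were Gsr, Txn2, Prdx1, Prdx3 and Mgst1, where Txn2 ranked 5452 in Sod2-/- and 5398 in control, and those higher in both included Nfe2l2, Sqstm1, Nqo1, Hmox1, Txnip, Srxn1 and Glrx. The ranks can compare peaks of unequal extent. At Hmox1 the widths were 395 bp in Sod2-/-, 706 bp in control, 337 bp in rotenone and 758 bp in vehicle. Gclc and Txn1 also ranked higher in both, with a lower fold in both. Gpx8 did so by a peak at another place than in control and vehicle. For Srxn1 this holds at the start, while the peak at its far end ranked lower in both.

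Strong peaks of any place numbered 131 in Sod2-/-, 130 in control, 136 in rotenone and 134 in vehicle. Of these, 20, 22, 20 and 19 lay at a member gene end and 111, 108, 116 and 115 were distal. Part of the distal ones, 35, 35, 40 and 37, lay within 1000 bp of an end of another gene and cannot be assigned to the member. Gene-end peaks had a median fold of 6.56 in Sod2-/- against 5.80 for distal peaks, and the pairs were 7.59 and 7.19 in control, 7.38 and 6.04 in rotenone and 7.61 and 7.21 in vehicle. Among all strong peaks of each library, those at gene ends had the higher median fold too, with 6.12 against 5.34 in Sod2-/- and 7.27 against 6.65 in control. Gene-end peaks were also wider, with medians of 537.5 and 316 bp in Sod2-/-, 628.5 and 411.5 bp in control, 395.5 and 302 bp in rotenone, and 630 and 368 bp in vehicle. In the whole lists strong gene-end peaks were the wider ones too, with medians of 416 against 267 bp in Sod2-/-, 554.5 against 334 bp in control, 420 against 245 bp in rotenone and 513 against 308 bp in vehicle.

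**Figure D3:**
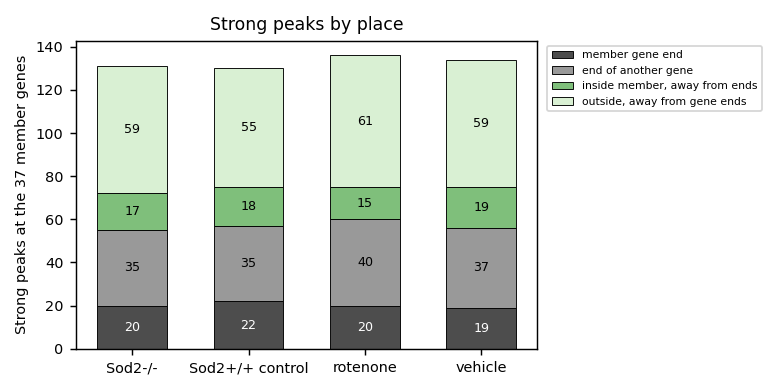
Number of strong peaks at the 37 member genes by place in the 4 libraries: at a member gene end, at the end of another gene, inside the member away from its ends, and outside. The totals run from 130 to 136, and the largest class in each library lies outside the member and away from gene ends, with 55 to 61 peaks.

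Merging overlapping strong peaks of the 4 libraries gave 179 regions, of which 99 were strong in all 4 libraries (55.3%), against 46.1% of 42457 regions genome-wide. A further 40 were strong in 1 library only (22.3%; 23.8% genome-wide). The share strong in all 4 libraries was 16 of 27 at member gene ends (59.3%), 33 of 42 at ends of other genes (78.6%), 11 of 23 inside members (47.8%) and 39 of 87 outside (44.8%). It was thus highest at ends of other genes, which cannot be assigned to the members. The genome-wide share was not split by place, so the part of place in the difference was not tested. By role, 20 of 33 regions of the regulators were strong in all 4 libraries, 21 of 36 of the peroxiredoxins and sulfiredoxin, and 9 of 24 of the genes of glutathione synthesis and recycling.

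The members with most strong peaks over the 4 libraries were Txn2 (28), Nfe2l2 (26), Hmox1 (26), Prdx1 (25) and Prdx5 (24). Their highest ranked distal regions were strong in all 4 libraries. That of Nfe2l2 lay inside the gene at 75685319-75686028, with folds of 8.08 in Sod2-/- and 8.54 in control, and 7.90 in rotenone and 8.55 in vehicle. That of Prdx1 (116708142-116708707, folds 15.02 in Sod2-/-, 17.2 in control, 15.3 in rotenone and 15.8 in vehicle) lay at an end of Ccdc163, that of Prdx5 (6921630-6922175, folds 8.80, 10.8, 9.59 and 11.2 in the same order) at an end of another gene, nearest to Esrra, and that of Txn2 (77945662-77946202, folds 8.25, 9.56, 9.79 and 11.8 in that order) within Foxred2. Dense windows therefore also reflect neighbouring genes.

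Few member regions changed class. A strong peak was called gained or lost when none of the 60000 highest ranked peaks of the partner library overlapped it. In Sod2-/-, 5 of 131 strong member peaks were gained (3.82%, 1.64 to 8.62), against a background of 5.33% of all strong peaks, and 7 of 130 control peaks were lost (5.38%, 2.63 to 10.7), against 6.76%. In rotenone, 5 of 136 were gained (3.68%, 1.58 to 8.32), against 6.81%, and 7 of 134 vehicle peaks were lost (5.22%, 2.55 to 10.4), against 8.04%. Between vehicle and control, 0 of 134 were gained, against 1.03%, and 1 of 130 was lost, against 0.847%. The member shares thus lay near or below those of the whole lists in every comparison. When no partner peak of any strength was allowed, 0 were gained (0.243%) and 1 lost (0.343%) in Sod2-/-, and 0 gained (0.773%) and 2 lost (0.943%) in rotenone; the percentages are those of all strong peaks. Between vehicle and control 0 were gained (0.11%) and 0 lost (0.0867%) by that rule.

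Longer and shorter lists gave other counts. With the 60000 strongest peaks of each library, set against 120000 in the partner, 10 of 229 member peaks were gained in Sod2-/- (4.37%, 2.39 to 7.85), against 12.1% of all, and 40 of 265 were lost (15.1%, 11.3 to 19.9), against 14%. The gained share thus lay below the background and the lost share near it. In rotenone 27 of 256 were gained (10.5%), against 15.6%, and 36 of 256 lost (14.1%), against 16.5%. Between vehicle and control 2 of 256 were gained, against 4.08%, and 5 of 265 lost, against 3.45%. With the 15000 strongest, 2 of 78 were gained in Sod2-/- (background 4.9%) and 5 of 79 lost (5.58%). In rotenone 2 of 74 were gained (5.52%) and 2 of 68 lost (6.09%). Between vehicle and control 0 of 68 were gained (0.96%) and 1 of 79 lost (0.633%).

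**Figure D4:**
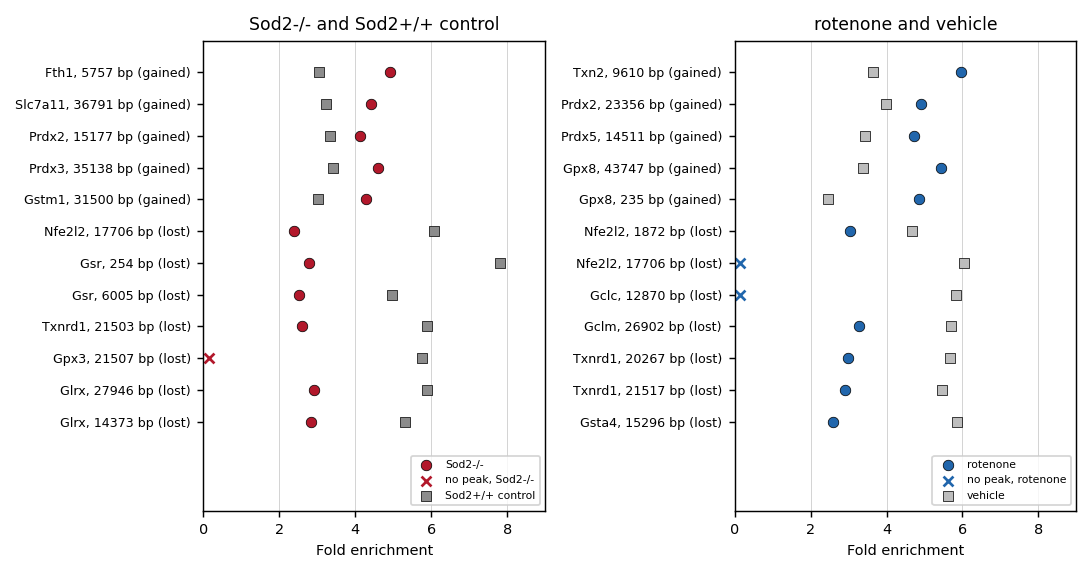
Fold enrichment of the regions gained or lost at member genes, labelled by the member and the distance to its nearest end, in Sod2-/- and Sod2+/+ control (left) and in rotenone and vehicle (right). Crosses mark a region with no peak in that library. Folds of lost regions lie at 3.28 or below in the perturbed library of each pair.

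Of the 7 regions lost in Sod2-/-, 5 had the member as the nearest gene: 2 at Gsr, the gene-end region given above and one inside the gene at 33659101-33659385 (fold 2.51 in Sod2-/- and 4.97 in control), and 1 each at Nfe2l2, Txnrd1 and Glrx. The others, at Gpx3 (54931855-54931934) and Glrx (75878049-75878145), lay within the neighbours Tnip1 and Rhobtb3. The Gpx3 one had no Sod2-/- peak but was also lost in vehicle against control. The remaining Glrx region, at 75825429-75825595 and 14373 bp before the gene, had a fold of 2.83 in Sod2-/- and 5.30 in control. The gained regions in Sod2-/- were nearest to the member at Fth1 (9974778-9974909, fold 4.91 in Sod2-/- and 3.05 in control) and Slc7a11 (50462199-50462394, fold 4.41 in Sod2-/- and 3.23 in control). Those counted for Prdx2, Prdx3 and Gstm1 lay nearest to Hook2, Dennd10 and Gstm4, and the ones for Prdx3 and Gstm1 spanned 30 and 51 bp. The best rank of a region gained in Sod2-/- was 20070, in the lower part of the strong list.

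Regions lost in rotenone lay at Nfe2l2 (2), Txnrd1 (2), Gclc, Gclm and Gsta4. At Gclc the region inside the gene at 77781577-77781661 had no rotenone peak and a fold of 5.84 in vehicle, but it spanned 85 bp and ranked 51217 in control. At Nfe2l2 a region 1872 bp inside the gene, at 75702678-75702904, had a fold of 3.04 (rank 63416) in rotenone and 4.68 (rank 19865) in vehicle, and was strong in Sod2-/- and control (3.69 in Sod2-/- and 3.93 in control). The regions of Gclm (122294050-122294185) and Gsta4 (78176602-78176738) lay nearest to Dnttip2 and Cilk1. At Txnrd1 a region 20267 bp beyond the gene, at 82917855-82918127, had a fold of 2.99 in rotenone and 5.68 in vehicle. Among the gained regions, the one at Txn2 (77905378-77905505) had a fold of 5.97 in rotenone and 3.64 in vehicle, and 1 of the 2 at Gpx8 lay at its gene end (113046622-113046709, fold 4.85 in rotenone and 2.45 in vehicle), inside Cdc20b and 88 bp wide. The others lay within Hook2 for Prdx2, Catsperz for Prdx5 and Mcidas for Gpx8.

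A pair of regions was lost in both comparisons. The first lay 17706 bp before the start of Nfe2l2 at chromosome 2, 75722312-75722427. Its fold was 2.40 (rank 194649) in Sod2-/- and 6.07 (rank 21727) in control, and there was no peak in rotenone against a fold of 6.05 (rank 24983) in vehicle. The peak was 116 bp wide in control and 117 bp in vehicle. The second lay inside Txnrd1 at chromosome 10, 82876103-82876339, with a fold of 2.61 (rank 123778) in Sod2-/- and 5.89 (rank 24004) in control, and 2.91 (rank 132242) in rotenone and 5.47 (rank 29623) in vehicle. At both regions control and vehicle stood close together and the perturbed libraries apart from them. Such sharing was frequent in the whole lists: 556 of the 2027 regions lost in Sod2-/- (27.4%) and of the 2413 lost in rotenone (23.0%) were lost in both, against 2 of 7 at the members in either comparison. For gained regions it was 345 of 1600 and of 2042 (21.6% and 16.9%), against 0 of 5 at the members in either.

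**Figure D5:**
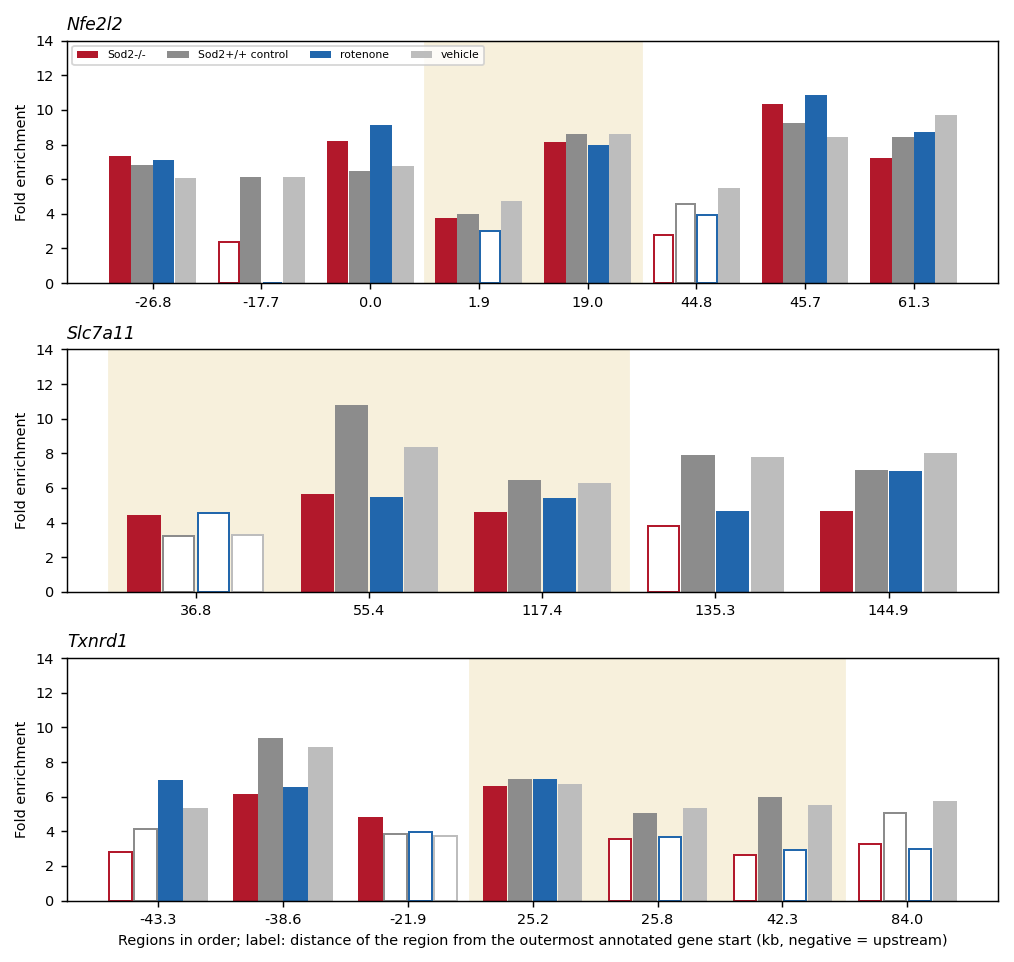
Fold enrichment at each merged strong region of Nfe2l2, Slc7a11 and Txnrd1 in Sod2-/-, Sod2+/+ control, rotenone and vehicle. Regions stand in order of their distance (kb) from the outermost annotated gene start, filled bars are among the 30000 strongest peaks, open bars are weaker, and shading marks regions inside the gene. The Nfe2l2 region 17.7 kb before the start and the Txnrd1 region 42.3 kb after it are strong in control and vehicle alone.

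A list of 78 further genes of the pathway, covering other NRF2 regulators and targets and genes of glutathione and thioredoxin metabolism, was drawn up with earlier results of these data known. Strong gene-end peaks were found at 19 to 20 of 34 regulators and targets, 12 to 14 of 26 glutathione genes and 10 to 12 of 18 thioredoxin genes, against 35.6% to 36.5% of all protein-coding genes. In their windows 6 of 291 strong peaks were gained in Sod2-/- (2.06%), against 5.33% of all strong peaks, and 22 of 298 were lost (7.38%), against 6.76%. In rotenone 15 of 282 were gained (5.32%), against 6.81%, and 12 of 293 lost (4.10%), against 8.04%. Between vehicle and control 3 of 293 were gained (1.02%), against 1.03%, and 2 of 298 lost (0.671%), against 0.847%. The lost share in Sod2-/- and both shares between vehicle and control lay near those of all strong peaks. Gstm2 and Gstm5 share part of the Gstm1 window, so a peak can count for several genes. Gene-end regions were lost in Sod2-/- at Txndc5, which encodes a disulfide isomerase of the endoplasmic reticulum, and at Selenop, the gene of the secreted selenoprotein P. The best Selenop gene-end peak had a fold of 3.08 in Sod2-/- and 6.01 in control, and 2.81 in rotenone and 4.89 in vehicle. That of Txndc5 had 3.87 (rank 34855) in Sod2-/- and 6.02 (rank 22358) in control, and 4.30 in rotenone and 4.76 in vehicle. This Sod2-/- peak of Txndc5 ranked high enough to count as a partner, so it did not overlap the lost region. A weaker gene-end peak of Txndc5 thus remained in Sod2-/-. In rotenone a gene-end region was gained at Txndc12 (best gene-end fold 4.64 in rotenone and 3.89 in vehicle). A gene-end region of Chac2 was lost in vehicle against control. The best Chac2 gene-end peak nevertheless had a fold of 6.77 (rank 18929) in vehicle and 5.91 (rank 23015) in control. That vehicle peak did not overlap the lost region. The largest nets were 2 more lost than gained at Ugdh, Gstk1 and Ggct in Sod2-/- and 2 more gained than lost at Oplah in rotenone, and every other gene of the list had a net of 1 or 0 in either direction. No changed region behind the nets of Ugdh, Gstk1, Ggct and Oplah lay at an end of that gene, so their gene-end folds describe other peaks. The best gene-end fold of Ggct was 11.1 in Sod2-/- and 12.0 in control, and that of Ugdh 5.01 in Sod2-/- and 6.41 in control. That of Oplah was 4.42 (rank 29779) in rotenone and 7.15 (rank 15994) in vehicle, lower in rotenone although its net was a gain. At Gstk1, a mitochondrial and peroxisomal glutathione transferase gene, the best gene-end peak had a fold of 6.78 (rank 8915) in Sod2-/- and 15.2 (rank 1327) in control, and 7.998 (rank 6961) in rotenone and 17.9 (rank 958) in vehicle.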

How the data were processed

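ATAC-seq was measured in 4 libraries, 1 per group. Bowtie2, MACS2, HOMER, bedtools and build mm10 are named, per the submitters' processing notes, without settings or versions, and read depth is unknown. Each library has its own list, deposited without column names, whose 9 columns follow the order of MACS2 broad peaks. Each deposited peak carries a fold (ratio) over local background, −log10 p and −log10 q values, and a score that restates the q value; the lowest deposited q is near 0.1, so weak peaks are included. Lists were called separately, so folds of different libraries are not on a common scale. Where they stand side by side, they are not adjusted for the medians of their lists, and the rank gives the place of a peak within its own list.

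Peaks were ranked by −log10 p, ties by fold. Strong peaks are the highest 30000, and gained or lost ones overlap (by 1 bp) none of the 60000 highest partner peaks. Gene spans came from the RefSeq GRCm38.p6 table. Shares carry 95% Wilson intervals, which cover counting error only. The members and lists were chosen with earlier results of these data known. Named are all members, every changed region, the 5 members with most strong peaks, and further genes with gene-end changes or the largest net change; other regions of named members were picked after their values were seen. Calculations used Python 3.11.15, numpy 2.4.6, pandas 2.3.3 and matplotlib 3.10.9, and were tested on simulated data. Alternatives changed list length, ranking, peak width, chromosomes, window, overlap and partner list. Expression, other assays and peak sequences were not analysed here.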

Additional observations from a re-analysis of the deposited data

How the results depend on the processing

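No paired analysis was possible because each group has 1 library, so no library could be left out either, and no alternative gives an error. Within 1.5 times the reported value stayed all 36 alternatives each for the median folds of gene-end and distal peaks, and 25 of 28 for gene-end counts. That tolerance is wide: with strong lists of 60000 the gene-end median was 4.525 in Sod2-/-, 5.708 in control, 5.02 in rotenone and 5.765 in vehicle, the distal median was 4.334, 4.83, 4.589 and 5.207 in the same order, and the gene-end count was 28 in Sod2-/- and 28 in control. The gene-end count moved to 31 in rotenone and 29 in vehicle with strong lists of 60000, and to 11 in vehicle with lists of 15000. Distal peaks scale with list and window: in Sod2-/-, control, rotenone and vehicle they numbered 64, 64, 61 and 56 with lists of 15000, 196, 231, 222 and 224 with lists of 60000, 37, 38, 40 and 38 within 10000 bp, 212, 200, 215 and 209 within 100000 bp, and 34, 38, 36 and 40 where the member is the nearest gene.

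Counts of changed regions are small and moved by more than that in 37 of 66 alternatives. In Sod2-/- against control, gained regions numbered 2 with lists of 15000, 10 with lists of 60000 (background 12.1%), 3 among peaks of at least 100 bp, 2 within 10000 bp, 12 within 100000 bp, 2 by nearest gene and 0 when absent from the whole partner list, with lists of equal length too. Lost regions numbered 40 with lists of 60000 (15.1% of member peaks, background 14%), 3 within 10000 bp, 18 when 50% of the peak had to be covered and 1 when absent from the whole partner list, with equal lengths too. In rotenone against vehicle, gained regions numbered 2 with lists of 15000, 27 with lists of 60000 (background 15.6%), 2 within 10000 bp, 12 within 100000 bp, 1 by nearest gene and 0 when absent from the whole list, with equal lengths too. Lost regions numbered 2, 36, 3 and 12 in the first 4 of those settings, 17 with 50% covered and 2 when absent from the whole list, with equal lengths too. In vehicle against control, 2 were gained with lists of 60000, within 100000 bp and with 50% covered; 5 were lost with lists of 60000, 2 within 100000 bp, 3 with 50% covered, and 0 within 10000 bp, by nearest gene, or when absent from the whole list, with equal lengths too. Lost regions outnumbered gained ones in Sod2-/- except within 100000 bp (12 gained, 10 lost), and in rotenone except with lists of 15000 and within 100000 bp, where the counts were equal. The whole lists also lost more than they gained, with 2027 lost and 1600 gained in Sod2-/- and 2413 lost and 2042 gained in rotenone. The cause of these moves was not tested beyond the settings' own construction.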
